A study of Mus musculus with 12 samples.

Results

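The Hox genes and 27 other homeobox or paired-box genes that pattern the body and the brain outside the cortex were examined in RNA from embryonic mouse cortex. The members were all protein-coding genes whose symbol belongs to the Hoxa, Hoxb, Hoxc, Hoxd, Irx, Pitx, Phox2, Barhl, Tlx or Lmx1 families, Lbx1, and every Pax gene other than Pax6. This rule used names and no measured value, and it gave 66 genes of 48709 in the count tables, of which 39 were Hox genes. The samples were 12 libraries of cortex from C57BL/6J embryos at stage E15.5. A BAF155 conditional knockout (cKO) gave 4 of them, another 4 carry the label Pax6 cKO, and 4 are controls. Smarcc1 encodes BAF155, a scaffold protein of the chromatin remodeller BAF, and Pax6 encodes a transcription factor of cortical stem cells. The labels do not give the Cre driver of either deletion, the genotype of the controls, or whether libraries of a group are separate embryos, so a p-value here weighs differences against a spread between libraries that may be technical.

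Hox genes encode homeodomain transcription factors that lie in 4 clusters and specify position along the trunk and hindbrain. They are known to stay silent in the forebrain, where Polycomb complexes cover their promoters with the repressive mark H3K27me3. The other members act in neighbouring territories. Irx genes pattern the neural plate, heart and limb, Pax2, Pax5 and Pax8 build the boundary of midbrain and hindbrain, and Pax3 and Pax7 mark the dorsal neural tube. Barhl and Lmx1 genes act in the diencephalon, midbrain, hindbrain and spinal cord, and Lmx1a is also known from the cortical hem at the edge of the cortex. Not all Pax proteins carry a complete homeodomain, so paired-box genes such as Pax1 and Pax9 are members by name.

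Libraries held 15.16 to 32.05 M reads, which adds up to 84.6 M for the BAF155 cKO, 107 M for the Pax6 cKO-labelled libraries and 95.3 M for control. Smarcc1 averaged 127 ± 10.8 counts per M (CPM) in the BAF155 cKO, 186 ± 6.71 CPM in the Pax6 cKO-labelled libraries and 303 ± 68.7 CPM in control (SD, n = 4 each). Pax6 went against its label. It averaged 314 ± 40.3 CPM in the BAF155 cKO, 389 ± 8.74 CPM in the Pax6 cKO-labelled libraries and 110 ± 19.1 CPM in control, although whole-gene counts can include reads outside a deleted part. The cortical neuron marker Neurod6 was abundant in all groups, at 708 ± 117 CPM in the BAF155 cKO, 707 ± 51.3 CPM in the Pax6 cKO-labelled libraries and 1080 ± 107 CPM in control (SD, n = 4 each). Groups also differed in sex and in sequencing lane. Xist was at 915 CPM or more in the 4 BAF155 cKO libraries and control replicates 3 and 4, and summed Y-linked genes were at 289 CPM or more in the other 6. All controls were in lane 8, which held no other group, so lane and group cannot be told apart.

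Promoter sequence bears on these genes because Polycomb is known to be recruited to promoters rich in CpG. RefSeq promoters (GRCm38.p6) were found for 39 of the 66 members, and the 250 bases before each start were searched for CG, which reads the same on both strands. The median member promoter held 13 CG, against 10 over 16522 promoters of protein-coding genes, and 64.1% of member promoters held at least 10 CG, against 52.1% of all. At least 10 CG were held by 5 of 9 promoters of members with 10 or more reads and by 20 of 30 promoters of members with fewer reads. The sequences of 4 promoters show this spread, each 250 bases on the strand given, with every CG in capitals. They are Barhl2, the member with the most reads, Lmx1a, the second, and Hoxa13 and Hoxa9, both at 0 reads, which had the most and the fewest CG among the HoxA promoters found. Barhl2 (chr5:106458167-106458416, minus strand) held 36 CG and Hoxa13 (chr6:52260881-52261130, minus strand) 35. Lmx1a (chr1:167689308-167689557, plus strand) held 9 and Hoxa9 (chr6:52227371-52227620, minus strand) 3. The RefSeq starts of Lmx1a and Hoxa9 lie inside their GENCODE genes, so these 2 stretches are not upstream of the whole annotated gene.
Barhl2: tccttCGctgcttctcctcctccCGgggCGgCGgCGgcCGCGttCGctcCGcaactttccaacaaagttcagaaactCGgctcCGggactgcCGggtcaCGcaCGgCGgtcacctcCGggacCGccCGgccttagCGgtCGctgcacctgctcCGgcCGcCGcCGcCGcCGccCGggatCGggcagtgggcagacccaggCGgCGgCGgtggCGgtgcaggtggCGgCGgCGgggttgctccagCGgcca
Hoxa13: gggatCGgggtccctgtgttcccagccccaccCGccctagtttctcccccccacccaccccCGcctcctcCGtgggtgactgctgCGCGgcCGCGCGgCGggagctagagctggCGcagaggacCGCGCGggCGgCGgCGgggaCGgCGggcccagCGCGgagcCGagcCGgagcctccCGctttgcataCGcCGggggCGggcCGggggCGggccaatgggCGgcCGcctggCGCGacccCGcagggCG
Lmx1a: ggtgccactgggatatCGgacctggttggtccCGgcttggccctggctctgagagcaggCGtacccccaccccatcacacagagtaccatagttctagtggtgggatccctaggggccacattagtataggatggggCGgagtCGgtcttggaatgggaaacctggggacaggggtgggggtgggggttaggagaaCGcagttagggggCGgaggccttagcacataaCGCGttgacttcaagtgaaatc
Hoxa9: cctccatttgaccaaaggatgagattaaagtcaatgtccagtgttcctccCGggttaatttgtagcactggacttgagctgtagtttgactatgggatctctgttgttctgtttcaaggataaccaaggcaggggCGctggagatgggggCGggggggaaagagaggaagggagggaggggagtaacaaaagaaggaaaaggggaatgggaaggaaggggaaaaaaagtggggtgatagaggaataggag

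Hox genes were all but absent from the 12 libraries. Of the 39 Hox genes, 24 (61.5%) had 0 reads in every library, against 17% of the 21695 protein-coding genes in the tables. The 24 allow a level of up to 0.0105 CPM each over all 286.8 M reads, taking 3 reads as the limit that a count of 0 allows, and such limits and intervals cover counting error only. The other 15 Hox genes shared 36 reads. These were 5, 6, 4 and 1 reads in BAF155 cKO replicates 1 to 4, 1, 3, 5 and 2 reads in the Pax6 cKO-labelled libraries, and 2, 2, 4 and 1 reads in control. All 3 groups therefore overlapped, and 440 of the 468 pairs of a Hox gene and a library held no read. A Hox gene had at least 1 read for 7 genes in the BAF155 cKO, 9 genes in the Pax6 cKO-labelled libraries and 8 genes in control. No Hox gene passed the filter on low counts, so none entered the main test. The kit does not mark strand, and 12 of the 24 genes at 0 reads share exon bases with another annotated gene, where reads may be left unassigned, while the other 12 do not.

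**Figure D1:**
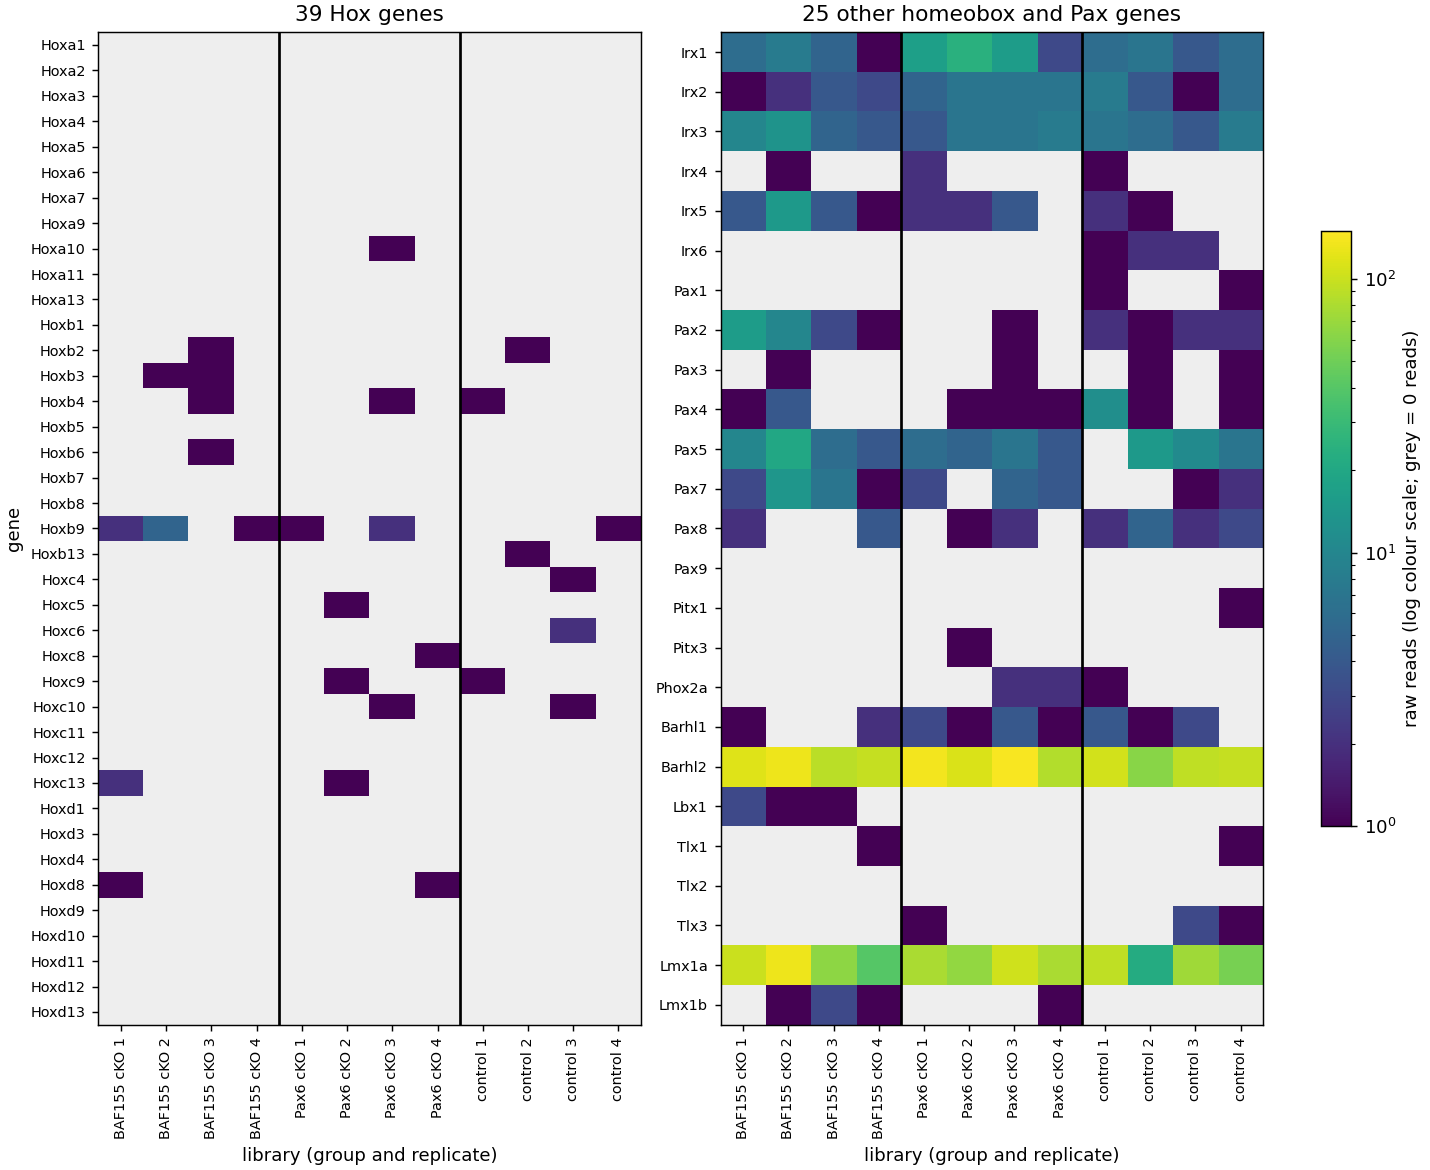
Raw reads per library for the 39 Hox genes (left panel) and 25 of the other members (right panel), with libraries in columns by group and genes in rows. Colour is on a log scale and grey marks 0 reads. The Hox panel is grey apart from 28 scattered cells, of which 23 hold 1 read and the highest 5, and Barhl2 and Lmx1a are the only rows with at least 20 reads in every library.

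The silence followed the clusters. The HoxA cluster spans 105 kb of mm10 chromosome 6 (52155590 to 52260880), and its 11 Hox genes shared 1 read, on Hoxa10, while 20 other annotated genes inside it had 0. The HoxD cluster (chromosome 2, 74668310 to 74765142) had 2 reads on its 9 Hox genes, both on Hoxd8, and 0 on 10 other genes. HoxC (chromosome 15, 102921103 to 103036852) had 12 reads on 9 Hox genes, with at most 3 on any gene, and 0 on 7 other genes. Hoxc6 had 2 reads, both in control replicate 3. HoxB (chromosome 11, 96194316 to 96368256) had 21 reads on 10 Hox genes, of which Hoxb9 held 12. The other genes inside HoxB with reads were the processed pseudogene Gm11539 with 448 reads, and Gm27605 and Gm53 with 2 reads each.

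Most of the 3 nearest protein-coding genes on each side of a cluster were expressed, but several of the closest were low. On a scale of CPM per kb of exon, which allows genes to be compared, Mtx2 lay 60.7 kb from HoxD at 23.9 and Lnpk 88.9 kb away on its other side at 8.21. Calcoco1 and Smug1, 199 and 116 kb from HoxC, were at 23.4 and 6.83. Skap2 and Hibadh, 143 and 285 kb from HoxA, were at 0.662 and 3.27. Skap1 and Snx11, 96.3 and 399 kb from HoxB, were at 0.204 and 10.8. On the other side of HoxB, Ttll6, 28.9 kb away, had 20 reads in all and Calcoco2, 82.4 kb away, had 0. The even-skipped homeobox genes at the ends of 2 clusters were as low as the Hox genes. Evx2, 8.75 kb from HoxD, had 2 reads in all, and Evx1 beside HoxA had 0. The highest Hox gene on this scale, Hoxb9, was at 0.015 CPM per kb.

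**Figure D2:**
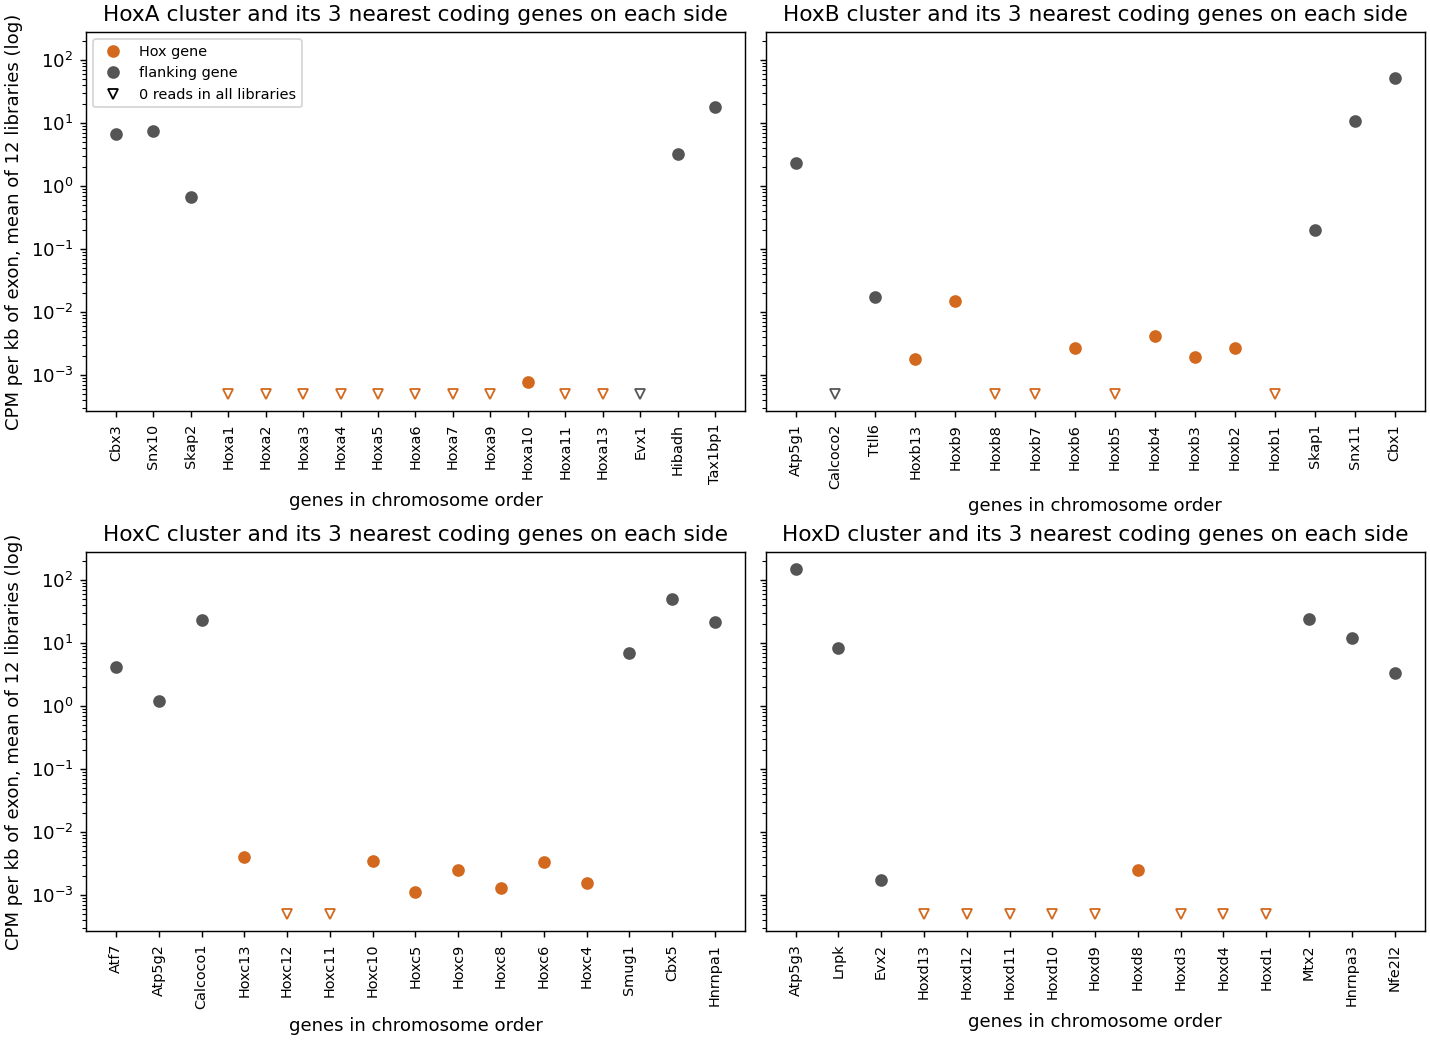
Mean level over 12 libraries, in CPM per kb of exon on a log axis, of each Hox gene and of the 3 nearest protein-coding genes on either side of each cluster, in chromosome order. Open triangles mark genes with 0 reads. Hox genes with reads lie at or under 0.015, and most flanking genes lie above 0.2.

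Hoxb9, which specifies thoracic identity, was the one Hox gene with 10 or more reads (ENSMUSG00000020875, chromosome 11, 96271457 to 96276595, plus strand). It had 2, 5, 0 and 1 reads in the BAF155 cKO, 1, 0, 2 and 0 reads in the Pax6 cKO-labelled libraries, and 0, 0, 0 and 1 reads in control. Each group held libraries at 0, so the groups overlapped. Pooled over libraries, the BAF155 cKO stood at 8.73 times control (exact 95% interval 1.17 to 387), an interval of counting error only that rests on 8 reads against 1.

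Barhl2 and Lmx1a were the members that the cortex libraries held in quantity, and neither was called by the test. They were the 2 of 66 members (3.03%) to pass the filter, against 64.9% of protein-coding genes. Barhl2, which encodes a homeodomain factor needed for retinal amacrine and spinal commissural neurons (ENSMUSG00000034384, chromosome 5, 106452523 to 106458166, minus strand), was at 1.95 CPM per kb, at percentile 52 of protein-coding genes. Lmx1a, a LIM homeobox gene of the roof plate, cortical hem and midbrain dopaminergic precursors (ENSMUSG00000026686, chromosome 1, 167689237 to 167848741, plus strand), was at 0.924 CPM per kb, at percentile 46.3. Among the tested protein-coding genes, whose median was 6.58 CPM per kb, the 2 stood at percentiles 26.1 and 17.3.

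The level of Barhl2 was 4.58, 4.75, 5.64 and 6.19 CPM in the 4 BAF155 cKO libraries, 4.87, 4.59, 4.39 and 3.67 CPM in the Pax6 cKO-labelled libraries, and 3.5, 2.94, 4.5 and 4.59 CPM in control. Each BAF155 cKO library lay above 3 of the controls, and the lowest fell just under the highest control. The log2 fold change of the BAF155 cKO over control was 0.44 (SE 0.17), which did not pass edgeR's quasi-likelihood test (Benjamini-Hochberg adjusted p = 0.0872). The Pax6 cKO-labelled libraries stood at 0.18 over control (SE 0.17, adjusted p = 0.411), with all groups overlapping.

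The level of Lmx1a was 3.92, 4.71, 4.06 and 2.55 CPM in the 4 BAF155 cKO libraries, 2.83, 2.72, 3.17 and 3.45 CPM in the Pax6 cKO-labelled libraries, and 3.04, 1.04, 3.58 and 2.58 CPM in control. Control replicate 2 was far below the other controls, and the groups overlapped. By the same test the BAF155 cKO stood at a log2 fold change over control of 0.58 (SE 0.27, adjusted p = 0.151). The Pax6 cKO-labelled libraries stood at 0.24 (SE 0.27, adjusted p = 0.507). Without control replicate 2 the value for the Pax6 cKO-labelled libraries was −0.03 (adjusted p = 0.927). Control replicate 2 also had the lowest sum of 8 cortical hem genes among controls, 45 CPM against 73.9 to 80.8 CPM in the other 3. Within the BAF155 cKO, replicate 2 had the highest Lmx1a and the highest hem sum, 76.7 CPM against 43.3 to 52.4 CPM. Between groups the 2 did not go together. The hem sum was 44 to 48.4 CPM in the Pax6 cKO-labelled libraries and highest in control, where mean Lmx1a was lowest (2.56 CPM, against 3.81 CPM in the BAF155 cKO). The largest part of the sum was Rspo3, at 24.8 CPM in the BAF155 cKO, 22.3 CPM in the Pax6 cKO-labelled libraries and 40.7 CPM in control. The part of hem content in the Lmx1a values was not tested, and in bulk tissue fewer cells of a type and less RNA per cell cannot be told apart.

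The paralogs were near the detection limit. Barhl1, known for cerebellar granule cells and inner ear hair cells, had 20 reads in all, 3 in the BAF155 cKO, 9 in the Pax6 cKO-labelled libraries and 8 in control. Lmx1b, needed for dorsal limb pattern and serotonergic neurons, had 5 reads in the BAF155 cKO (0, 1, 3 and 1), 1 read in the Pax6 cKO-labelled libraries and 0 in control. The BAF155 cKO stood at 1.82 times a limit of 3 reads in control, which leaves out the counting error of the BAF155 cKO reads. With no filter on low counts, edgeR did not call Lmx1b in the BAF155 cKO over control (log2 fold change 3.66, adjusted p = 0.148).

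Over the 12 libraries, the 5 genes whose pattern was most like that of Barhl2 by Spearman correlation of CPM were Hapln4 (rho 0.92), Gm44763 (0.90), Pcdhb13 (0.90), Cdh22 (0.89) and Crabp2 (0.89), a description over 12 libraries that share groups, sexes and lanes. Each of these 5 had its highest group mean in the BAF155 cKO, as Barhl2 did. Their choice by likeness to Barhl2 favours that order, so it is no further result. Crabp2, a retinoic acid binding protein, averaged 3.48 CPM in the BAF155 cKO, 2.73 CPM in the Pax6 cKO-labelled libraries and 1.99 CPM in control.

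The Irx genes, which lie in a cluster of Irx1, Irx2 and Irx4 on chromosome 13 and one of Irx3, Irx5 and Irx6 on chromosome 8, held 285 reads over all libraries. Their summed level was 0.575 to 1.39 CPM in the BAF155 cKO, 0.786 to 1.63 CPM in the Pax6 cKO-labelled libraries and 0.532 to 0.955 CPM in control. In each cluster the first gene listed was the highest and the last the lowest, at 0.131, 0.059 and 0.00446 CPM per kb for Irx1, Irx2 and Irx4 and 0.106, 0.0372 and 0.00555 CPM per kb for Irx3, Irx5 and Irx6. Of the 12 protein-coding genes nearest to the clusters, 3 on each side, 9 were at 1.16 CPM per kb or higher, among them Ndufs6, 50.2 kb from the first cluster, at 51.8 and Fto, 130 kb from the second, at 14. The other 3 were low. Adamts16 and Capns2 were at 0.225 and 0.199 CPM per kb, and Med10, with 12 reads, was at 0.00953, below 4 of the Irx genes.

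Irx1, a patterning factor of the neural plate and lung, had its 3 highest values in Pax6 cKO-labelled libraries. It had 6, 8, 5 and 1 reads in the BAF155 cKO, 17, 24, 16 and 3 reads in the Pax6 cKO-labelled libraries, and 6, 7, 4 and 6 reads in control. Replicate 4 labelled Pax6 cKO was below every control. Pooled, the Pax6 cKO-labelled libraries stood at 2.23 times control (exact 95% interval 1.36 to 3.78, counting error only). With no filter, edgeR put this difference at 1.12 on the log2 scale (SE 0.46, adjusted p = 0.099). Without replicate 4 the no-filter value was 1.43 (SE 0.44, adjusted p = 0.0265). Replicate 4 was the lowest of its group, so leaving it out raises the difference, and that call carries little weight. Irx1 was also called under the filter without replicate 4, but it passed only through the 3 high libraries of that group, so that call is no support.

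Irx5, a factor of retinal bipolar cells and the heart, was highest in the BAF155 cKO. It had 4, 15, 4 and 1 reads in the BAF155 cKO, 2, 2, 4 and 0 reads in the Pax6 cKO-labelled libraries, and 2, 1, 0 and 0 reads in control. BAF155 cKO replicate 2 held 15 of all 35 reads, and replicate 4, with 1 read, was within the range of control. Irx3, which shares its cluster and is known from ventral spinal cord and heart, had 10, 13, 5 and 4 reads in the BAF155 cKO, 4, 7, 7 and 8 reads in the Pax6 cKO-labelled libraries, and 7, 6, 4 and 8 reads in control, so that the groups overlapped. Irx3 also shares exon bases with its antisense RNA Irx3os, which had 11 reads. Irx2 had 10, 26 and 19 reads, Irx4 had 1, 2 and 1 and Irx6 had 0, 0 and 5 in the BAF155 cKO, the Pax6 cKO-labelled libraries and control in that order.

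The Pax genes outside Pax6 held 222 reads, and Pax5, Pax7 and Pax2 held most of them. Their summed level was 0.638 to 1.75 CPM in the BAF155 cKO, 0.284 to 0.518 CPM in the Pax6 cKO-labelled libraries and 0.562 to 1.09 CPM in control. The libraries labelled Pax6 cKO lay below every library of the other 2 groups, but against control this rested on Pax4 in control replicate 1. Without Pax4 the sum was 0.638 to 1.61 CPM in the BAF155 cKO, 0.244 to 0.488 CPM in the Pax6 cKO-labelled libraries and 0.165 to 1.04 CPM in control, so that only the BAF155 cKO lay apart from the Pax6 cKO-labelled libraries. Pax5, a factor of the midbrain-hindbrain boundary and of B cells, was the highest by CPM. It had 10, 20, 6 and 4 reads in the BAF155 cKO, 6, 5, 7 and 4 reads in the Pax6 cKO-labelled libraries, and 0, 15, 11 and 7 reads in control. Control replicate 1 alone had none. With no filter its log2 fold change in the Pax6 cKO-labelled libraries was −0.89 (SE 0.62, adjusted p = 0.4). Without control replicate 1, where Pax5 passed the filter, it was −1.38 (SE 0.41, adjusted p = 0.0165). That replicate was the lowest control, so leaving it out enlarges the difference. The Pax6 cKO-labelled libraries were at 0.175 to 0.213 CPM, and Pax5 passed the filter through the other groups, so that call is no support. Exons of 2 antisense genes with 16 and 2 reads overlap Pax5.

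Pax2, which acts with Pax5 at that boundary and in kidney and optic stalk, differed most between the 2 cKOs. It had 16, 10, 3 and 1 reads in the BAF155 cKO, 0, 0, 1 and 0 reads in the Pax6 cKO-labelled libraries, and 2, 1, 2 and 2 reads in control. Every BAF155 cKO library lay above every library labelled Pax6 cKO on the CPM scale, at 0.0638 to 0.621 CPM against 0 to 0.0305 CPM, while replicate 4 lay within the control range of 0.0474 to 0.0967 CPM. Pooled, the BAF155 cKO stood at 38.3 times the Pax6 cKO-labelled libraries (exact 95% interval 6.36 to 1560) and at 4.68 times control (2.01 to 12.6). Pax2 was higher in the 2 BAF155 cKO libraries of lane 1, with 16 and 10 reads, than in those of lane 3, with 3 and 1. The lane 3 libraries were also less deep, at 15.75 and 15.16 M reads against 25.41 and 28.26 M. On the CPM scale the values were 0.621 and 0.357 CPM in lane 1 and 0.19 and 0.0638 CPM in lane 3.

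Pax7, which marks dorsal midbrain and muscle stem cells, had 3, 14, 7 and 1 reads in the BAF155 cKO, 3, 0, 5 and 4 reads in the Pax6 cKO-labelled libraries, and 0, 0, 1 and 2 reads in control. BAF155 cKO replicates 2 and 3 were above all other libraries and replicate 4 was within the control range. Its close relative Pax3, of dorsal neural tube and neural crest, had 1 read in the BAF155 cKO, 1 in the Pax6 cKO-labelled libraries and 2 in control. Pax8, of thyroid and kidney, had 6, 3 and 12 reads and Pax4, of pancreatic beta cells, 5, 3 and 14 in the same order of groups. Of the 14 control reads of Pax4, 12 were in replicate 1. Pax1, of the vertebral column, had 2 reads, both in control, and Pax9 had 0.

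**Figure D3:**
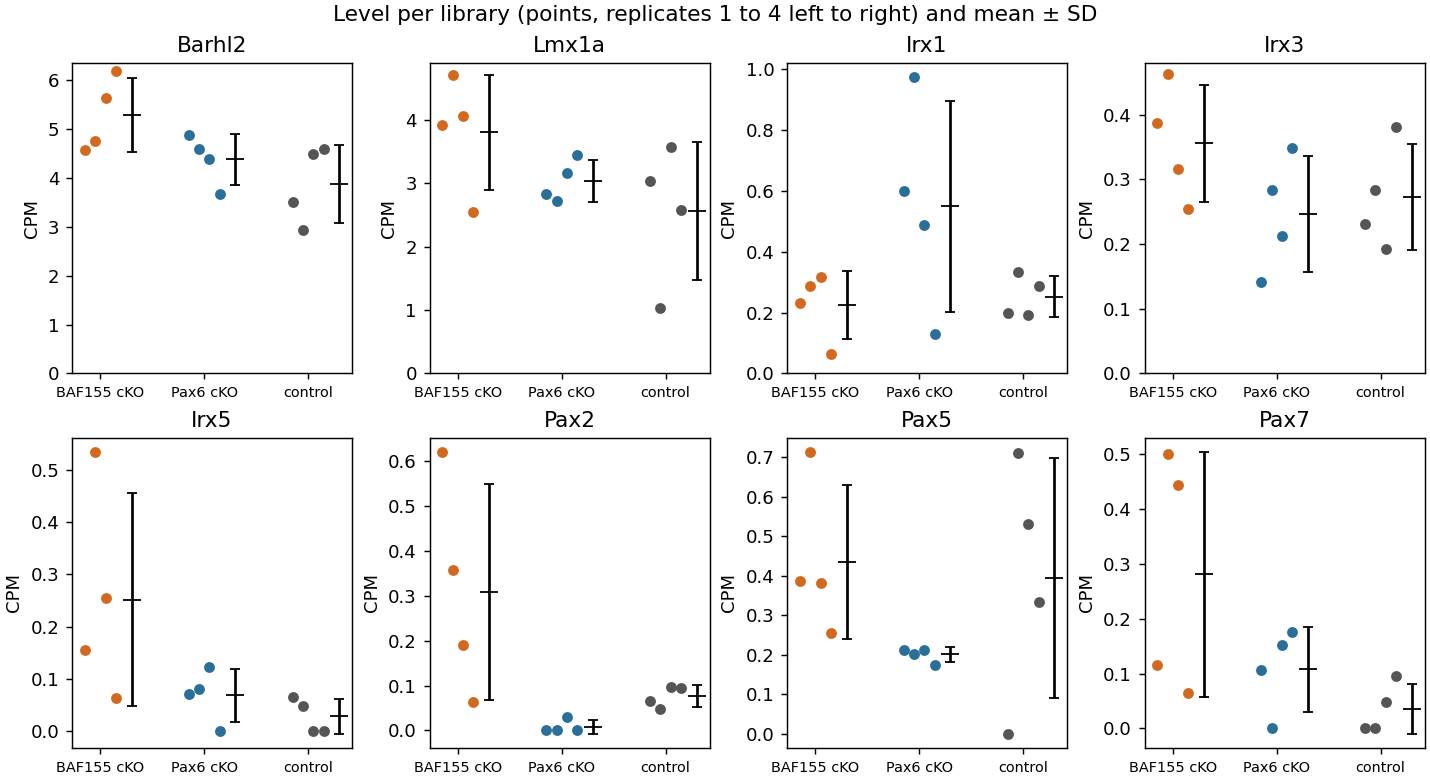
Level in CPM of 8 members in each library (points, replicates 1 to 4 from left to right within a group) with the group mean and SD (n = 4). The vertical scale differs between panels. Groups overlap for Barhl2 and Lmx1a, and the Irx5, Pax2 and Pax7 means in the BAF155 cKO rest on replicates with 0.116 CPM or more while replicate 4 lies at 0.0638 CPM for all 3.

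The remaining families were at or near 0. Lbx1, which specifies dorsal spinal interneurons and migrating muscle precursors, had 3, 1, 1 and 0 reads in the BAF155 cKO and 0 in every other library. Pooled, the BAF155 cKO stood at 2.13 times a limit of 3 reads in the Pax6 cKO-labelled libraries and 1.82 times that limit in control. The counting error of the BAF155 cKO reads is left out of these values. With no filter, edgeR called Lbx1 in neither comparison (adjusted p = 0.212 and 0.146). Phox2a, of noradrenergic and motor neurons, had 0 reads in the BAF155 cKO, 4 in the Pax6 cKO-labelled libraries and 1 in control, and its exons overlap those of Inppl1 on the other strand, which had 12874 reads. Pitx1, of the hindlimb, and Pitx3, of midbrain dopaminergic neurons and lens, had 1 read each. Of the Tlx genes, Tlx3 had 0, 1 and 4 reads in that order of groups, Tlx1 had 2 in all and Tlx2 had 0.

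Over the 66 members, no gene was called in any comparison of the main test, by edgeR, DESeq2 or limma-voom. With 2 members tested this count carries little weight. For the BAF155 cKO against control, 13.6% of the 16511 tested genes were called, 998 higher and 1248 lower, and both members tested had an unadjusted p under 0.05. In the Pax6 cKO-labelled libraries against control 35.5% were called, and in the BAF155 cKO against the Pax6 cKO-labelled libraries 4.31%, with 0 members at an unadjusted p under 0.05 in each. The summed level of all members was 10.3 to 13 CPM in the BAF155 cKO, 8.56 to 9.48 CPM in the Pax6 cKO-labelled libraries and 6.16 to 9.86 CPM in control. The BAF155 cKO libraries thus lay above all others, a sum made mostly of Barhl2 and Lmx1a.

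When every gene with at least 1 read was kept, 39 members entered and 3 were called. Irx5 and Pax7 were higher in the BAF155 cKO than in control, with log2 fold changes of 2.86 (SE 0.82, adjusted p = 0.0276) and 2.92 (SE 0.86, adjusted p = 0.0337) by edgeR's quasi-likelihood test, against 2.27% of 31198 genes called higher. Pax2 was higher in the BAF155 cKO than in the Pax6 cKO-labelled libraries by 4.53 (SE 0.86, adjusted p = 0.00144), against 0.856% of genes called higher. Against control, the BAF155 cKO stood at 2.03 (SE 0.65, adjusted p = 0.0527). The Pax6 cKO-labelled libraries stood at −2.50 (SE 1.07, adjusted p = 0.114). No member was called in the Pax6 cKO-labelled libraries against control, with 5 at an unadjusted p under 0.05 and 16% of all genes called. These 3 genes were singled out after their values were seen, and fitted fold changes at such counts depend on the prior count.

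Of the 3 calls, that of Pax2 held when each of the 8 libraries compared was left out (adjusted p at most 0.0222), and those of Irx5 and Pax7 did not. The groups of the Pax2 call differed wholly in sex, so no same-sex fit could be run for it, and sex and group cannot be told apart there. The Irx5 call was lost without BAF155 cKO replicate 2 (log2 fold change 2.10, adjusted p = 0.155) and without control replicate 3 or 4 (2.55 and 2.54, adjusted p = 0.0849 and 0.0804). The Pax7 call was lost without BAF155 cKO replicate 2 or 3 (2.38 and 2.71, adjusted p = 0.0927 and 0.0735) and without control replicate 1, 2 or 3 (2.44, 2.59 and 3.12, adjusted p = 0.0722, 0.0837 and 0.0688). With the BAF155 cKO libraries of lane 1 alone, Irx5, Pax7 and Pax2 had log2 fold changes over control of 3.28, 3.10 and 2.63 (adjusted p = 0.0104, 0.0291 and 0.00798). With those of lane 3 alone none of the 3 was called over control, at 2.12, 2.75 and 0.69 in the same order (adjusted p = 0.289, 0.0909 and 0.748). The libraries of lane 3 also held fewer reads than those of lane 1. Over the Pax6 cKO-labelled libraries, Pax2 stood at 5.15 with lane 1 alone (adjusted p = 2.63e-05) and at 3.17 with lane 3 alone (adjusted p = 0.375). Against the 2 controls of the same sex, Irx5 was at 5.52 (adjusted p = 0.00832), where both controls had 0 reads and the fitted value is no bound, and Pax7 at 1.89 (adjusted p = 0.17).

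Genes that work with Hox proteins were expressed although the Hox genes were not. The TALE homeodomain partner Meis2 was at 43.6 CPM per kb, and 14 of 18 listed cofactors and regulators passed the filter. Cdx2 and Cdx4, which switch on trunk Hox genes, had 0 reads, Cdx1 had 1, and Aldh1a2, which makes retinoic acid, had 17. In the BAF155 cKO against control 2 of 14 were higher and 0 lower, close to the 13.6% of all tested genes called. Pbx3, another partner, was at 142 ± 36.8 CPM in the BAF155 cKO, 179 ± 20 CPM in the Pax6 cKO-labelled libraries and 76.7 ± 26.3 CPM in control (SD, n = 4 each), with log2 fold changes over control of 0.89 (adjusted p = 0.0181) and 1.23 (adjusted p = 0.00132) by edgeR. Cyp26b1, which degrades retinoic acid, was at 23.7 ± 6.51 CPM in the BAF155 cKO, 8.67 ± 3.12 CPM in the Pax6 cKO-labelled libraries and 8.48 ± 1.34 CPM in control. It was called in the BAF155 cKO over control (1.48, adjusted p = 0.000927) and over the Pax6 cKO-labelled libraries (1.45, adjusted p = 0.00314). In the Pax6 cKO-labelled libraries against control 1 was higher, Pbx3, and 1 lower, where 35.5% of all tested genes were called. Besides Cyp26b1, Kmt2a, the methyltransferase that maintains Hox expression, was higher in the BAF155 cKO than in the Pax6 cKO-labelled libraries (0.38, adjusted p = 0.0425). The list's median log2 fold change was 0.13 in the BAF155 cKO and −0.14 in the Pax6 cKO-labelled libraries, beside 0.01 and 0.02 over all tested genes.

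Polycomb genes were expressed. All 15 listed genes for Polycomb and for H3K27 marking passed the filter, and the core subunits Ezh2, Eed and Suz12 were at 35.3, 13.1 and 26.2 CPM per kb, none of them called in any comparison by edgeR. In the BAF155 cKO against control 2 were higher, Bmi1 (0.27, adjusted p = 0.0273) and Cbx7 (0.57, adjusted p = 0.049), and 1 was lower, beside 13.6% of all tested genes called. In the Pax6 cKO-labelled libraries against control 2 were higher and 3 lower, beside 35.5% of all tested genes called, so neither count of the 15 stood far from the share over all genes. Among them were Bmi1 (0.35, adjusted p = 0.00263) and Cbx7 (0.72, adjusted p = 0.00704) above, and Jarid2 (−0.28, adjusted p = 0.0327) and the H3K27 demethylase gene Kdm6b (−0.44, adjusted p = 0.0145) below. The X-linked demethylase gene Kdm6a was higher in the BAF155 cKO than in the Pax6 cKO-labelled libraries (0.65, adjusted p = 0.0169), groups that also differed in sex.

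**Figure D4:**
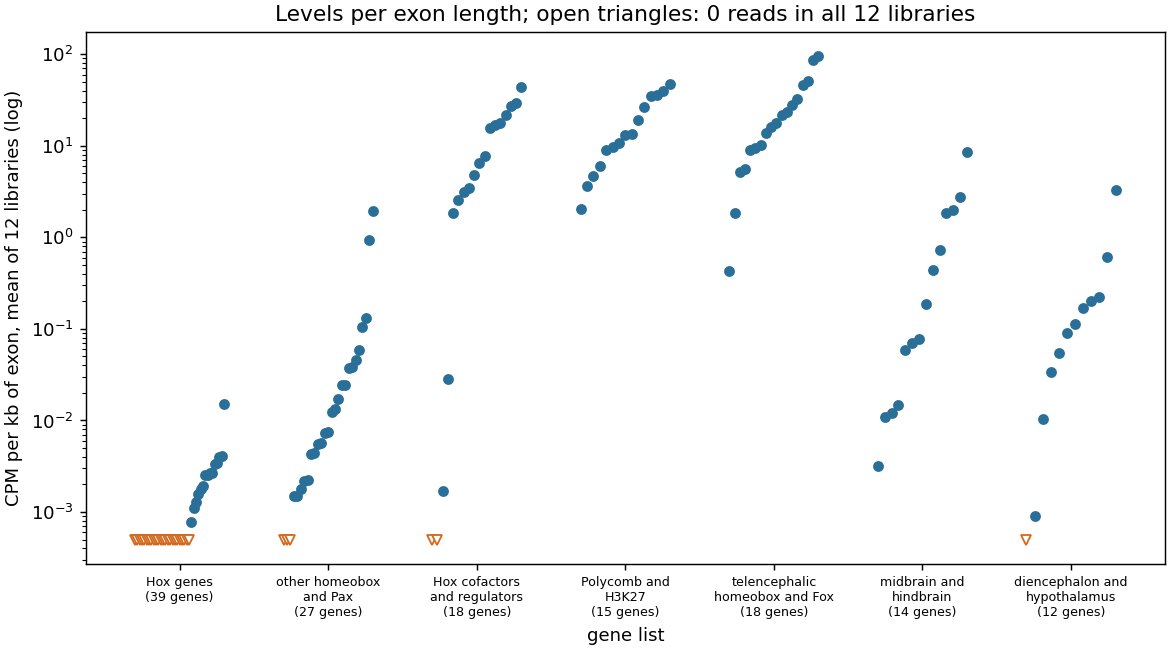
Mean level over 12 libraries, in CPM per kb of exon on a log axis, of every gene in 7 lists, sorted within each list. Open triangles mark genes with 0 reads. Hox genes lie at or under 0.015, Barhl2 and Lmx1a are the highest of the other homeobox and Pax genes, and the telencephalic and Polycomb lists lie mostly above 1.

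Homeobox and Fox genes that do belong to the telencephalon all passed the filter, and those called went in both directions. The lowest of the 18 listed, Gsx1, was at 0.428 CPM per kb, below Barhl2 and Lmx1a, and Dlx1 was at 86.9. In the BAF155 cKO against control 4 were higher and 7 lower, and in the Pax6 cKO-labelled libraries against control 5 were higher and 8 lower, beside 13.6% and 35.5% of all tested genes called. Among the higher was Dlx1, of ventral forebrain interneurons, with log2 fold changes over control of 1.03 (adjusted p = 9.77e-06) in the BAF155 cKO and 1.42 (adjusted p = 2.29e-07) in the Pax6 cKO-labelled libraries. Among the lower was Pou3f2, of upper cortical layers, at −1.27 (adjusted p = 9.14e-07) and −1.07 (adjusted p = 3.8e-06) in the same order of groups. Both sets of values share the 4 control libraries.

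Other genes of midbrain, hindbrain and diencephalon were in part called higher in the BAF155 cKO and in part near 0 reads. Of 14 midbrain and hindbrain genes 7 passed the filter. Olig3, a progenitor gene of the thalamus and dorsal hindbrain, was at 0.841 ± 0.356 CPM in the BAF155 cKO, 0.259 ± 0.155 CPM in the Pax6 cKO-labelled libraries and 0.0476 ± 0.0549 CPM in control (log2 fold changes 4.15, adjusted p = 0.000676, and 2.40, adjusted p = 0.0257). It passed the filter through the 4 BAF155 cKO libraries and 1 Pax6 cKO-labelled library. Lhx1 was higher in the BAF155 cKO (0.79, adjusted p = 0.00657) and in the Pax6 cKO-labelled libraries (0.77, adjusted p = 0.0032), and so was Lhx5 (0.80, adjusted p = 0.00712, and 0.73, adjusted p = 0.00465). Lhx5 is also 1 of 5 listed markers of Cajal-Retzius cells, the early neurons of the cortical surface. Of these markers 4 were higher in the BAF155 cKO and 5 in the Pax6 cKO-labelled libraries, beside 13.6% and 35.5% of all tested genes called in either direction. Among them was Trp73 (0.83, adjusted p = 0.000143, and 0.93, adjusted p = 2.55e-05). The part of these cells in the Lhx values was not tested. The boundary genes En1, En2 and Wnt1, which act with Pax2 and Pax5, had 9, 15 and 8 reads in all 12 libraries together, and Atoh1, of hindbrain granule cell precursors, had 2.

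Of 12 diencephalic and hypothalamic genes 6 passed the filter, Sim1 and Uncx through the 4 BAF155 cKO libraries alone and Otp through 3 of them and 1 Pax6 cKO-labelled library. No count of called genes is therefore given for this list or the one before. Sim1, of hypothalamic neurons, was at 2.55 ± 0.798 CPM in the BAF155 cKO, 0.309 ± 0.0768 CPM in the Pax6 cKO-labelled libraries and 0.0486 ± 0.0405 CPM in control, with log2 fold changes over control of 5.44 (adjusted p = 1.05e-06) and 2.41 (adjusted p = 0.00619). Uncx, Otp and Lhx9 were higher in the BAF155 cKO at 3.90, 5.40 and 0.95 (adjusted p = 0.000123, 0.00963 and 0.00736), and Tcf7l2, a thalamic gene, was lower at −0.86 (adjusted p = 0.00708). The summed level of this list was 52.4, 67.7, 46.9 and 53.8 CPM in BAF155 cKO replicates 1 to 4, 27.4 to 33.7 CPM in the Pax6 cKO-labelled libraries and 22.4 to 45.6 CPM in control. It was highest in BAF155 cKO replicate 2, the library that also had the most Irx5 and Pax7 reads. Most of the sum was Lhx9. Without it the sum was 8.62 to 13.9 CPM in the BAF155 cKO, 4.06 to 7.28 CPM in the Pax6 cKO-labelled libraries and 6.58 to 12.4 CPM in control, and the BAF155 cKO overlapped control. Foxa2, of the floor plate, had 0 reads and Foxa1 had 1.

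No gene of the cortical hem, the territory of Lmx1a within the telencephalon, was called higher. All 8 listed passed the filter, with 0 higher and 1 lower in the BAF155 cKO (Rspo3, −0.71, adjusted p = 0.0151) and 0 higher and 3 lower in the Pax6 cKO-labelled libraries (Rspo3, Bmp6 and Wnt3a at −0.87, −1.05 and −0.98, adjusted p = 0.002, 0.0146 and 0.0487), beside 13.6% and 35.5% of all tested genes called in either direction.

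Markers of tissues in which the members are normally expressed gave no single pattern. Sums over 7 liver genes were 1.63, 3.25, 37.3 and 207 CPM in BAF155 cKO replicates 1 to 4, 0.48 to 1.24 CPM in the Pax6 cKO-labelled libraries and 0.239 to 0.805 CPM in control, so they were highest in replicates 3 and 4, where Pax2 was lowest within the BAF155 cKO. Sums over 10 genes of meninges and mesenchyme were 29.4 to 38.3 CPM in the BAF155 cKO, 27.1 to 29.7 CPM in the Pax6 cKO-labelled libraries and 26.3 to 29.5 CPM in control, highest in BAF155 cKO replicate 2. Sums over 6 choroid plexus genes were 7.8 to 21.2 CPM in the BAF155 cKO, 26.2 to 331 CPM in the Pax6 cKO-labelled libraries and 17.5 to 36.2 CPM in control. The spread in the Pax6 cKO-labelled libraries was mostly Ttr, at 12.9 to 318 CPM. Over control Ttr was called higher there (3.32, adjusted p = 0.021) and the other 4 genes tested were not called, beside 35.5% of all tested genes called. Defining genes were at 0 reads in all libraries for serotonergic neurons (Fev), autonomic neurons (Hand2), floor plate and midbrain dopaminergic neurons (Foxa2) and eye (Rax), and muscle Myf5 had 1. Other genes of these lists had more reads and passed the filter. Tph2 and Slc6a4 of the serotonergic list had 152 and 148 reads, Isl1 of the autonomic list had 8107, and Th and Nr4a2 of the dopaminergic list had 627 and 9787. Of the muscle list Acta1 passed the filter with 311 reads, while Myod1 and Myog, with 11 and 5 reads, did not. Myod1 averaged 0.0883 ± 0.113 CPM in the BAF155 cKO, 0.0354 ± 0.0291 CPM in the Pax6 cKO-labelled libraries and 0.0119 ± 0.0239 CPM in control. Slc18a2, the vesicular monoamine transporter of the dopaminergic list, was higher in the BAF155 cKO (1.09, adjusted p = 0.0041) and in the Pax6 cKO-labelled libraries (1.02, adjusted p = 0.00286), and so was Mitf of the eye list (0.84, adjusted p = 0.0158, and 0.56, adjusted p = 0.0435). Nr4a2 was lower in the Pax6 cKO-labelled libraries (−0.44, adjusted p = 0.0246). The part of these tissues in the values of Irx5, Pax7 and Pax2 was not tested.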

How the data were processed

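The authors deposited 1 file of raw counts per library, whole numbers of reads for each gene without normalization. Per the labels' protocols, RNA was isolated with RNeasy and libraries were made with TruSeq RNA v2, which does not mark strand. Per the submitters' processing notes the build was mm10. The sources used here name no aligner, counter or annotation. Of 48709 Ensembl identifiers 48349 matched GENCODE M21, used for symbols, positions and exon length, and the other 360 took no more than 0.0397% of any library's reads. Lanes came from the names of the deposited files.

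Counts were fitted in R 4.3.3 with edgeR 4.0.16 (filterByExpr, TMM scaling, quasi-likelihood F-test with robust dispersion, 1 coefficient per group, all 12 libraries), and calls were made below 0.05 after Benjamini-Hochberg adjustment over all tested genes. All adjusted p-values of genes are from this test. CPM divides counts by the TMM-scaled library size in M. The fit was tested on simulated counts. DESeq2 1.42.0 and limma-voom (limma 3.58.1) were alternatives, with RLE scaling, no filter (at least 1 read), 1 CPM in 4 libraries as the filter, the 8 libraries compared fitted alone, the replicate number as a block, same-sex libraries, each lane of the BAF155 cKO and each library left out. Intervals are exact at 95%.

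The members and gene lists were chosen with earlier results of these data known. Named with values are members called in the main fit, with a mean of at least 1 CPM in a group, or highest in their family, and from each list the called genes (at most 4 per comparison, by adjusted p, or fewer where the text is shortened). Irx2 to Irx6, Pax2, Pax4, Pax7, Pax8, Barhl1, Lmx1b and the other low members given with reads were named after their values were seen, as were the genes given by reads or levels in the lists. Some genes that the rule names, members included, are not reported here.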

Additional observations from a re-analysis of the deposited data

Results flagged for a closer look

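Library values stood apart in 3 of 39 groups of 4 libraries tested for the members with 10 or more reads, where chance alone gives about 1 in 20 for continuous values, a rate that does not carry over to counts of 1 read. Pax4 was at 0.397 CPM in control replicate 1, a gap of 0.88 of the group's range to the next library. Hoxb9 was at 0.0478 CPM in control replicate 4 and 0 in the other 3 controls, which is 1 read. Pax2 was at 0.0305 CPM in replicate 3 labelled Pax6 cKO and 0 in the other 3, also 1 read.

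The level of Pax2 differed between the cKOs. Its log2 level was higher by 4.53 (SE 0.86, adjusted p = 0.00144 by edgeR with no filter) in the BAF155 cKO than in the Pax6 cKO-labelled libraries. This is a direct contrast of the 2 groups, in which control cancels. All 4 libraries of the BAF155 cKO lay above all 4 of the other group, which held 1 read in all. The groups also differed in sex, and with the BAF155 cKO libraries of lane 3 alone the call was lost (3.17, adjusted p = 0.375).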

How the results depend on the processing

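Under the filter, Barhl2 and Lmx1a kept their direction in every setting run apart from Lmx1a in the Pax6 cKO-labelled libraries without control replicate 2 (−0.03, with 0.43 the highest value on leaving out a library), and neither was called in any. For Barhl2 in the BAF155 cKO over control the log2 fold change ran from 0.21 to 0.61 (adjusted p 0.0606 to 0.461). For Lmx1a it ran from 0.32 to 0.77 (adjusted p 0.116 to 0.496). Members detected were 39 with at least 1 read and 2 with a mean of at least 1 CPM in a group. The number of members called was 0 in each main comparison. Leaving out single libraries gave 0 to 1 called higher and 0 to 1 called lower in the Pax6 cKO-labelled libraries over control. The 1 called higher was Irx1 without replicate 4 of that group, where it passed the filter only through the remaining libraries of the group. The 1 called lower was Pax5 without control replicate 1, the only control with no Pax5 read. With no filter 2 members were called higher in the BAF155 cKO over control and 1 over the Pax6 cKO-labelled libraries.

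The settings combined with no filter were added after the data had been seen. In the BAF155 cKO over control the count was then 1 with limma-voom, 1 with same-sex libraries, 0 with lane 3 alone and 0 to 3 with single libraries left out. In the Pax6 cKO-labelled libraries over control, 1 was higher with only the 8 libraries compared and 0 to 1 with single libraries left out, and lower were 2 with limma-voom, 1 with same-sex libraries and 0 to 1 with single libraries left out. In the BAF155 cKO over the Pax6 cKO-labelled libraries the count was 0 with lane 3 alone. Irx5 was called in 11 of 15 settings, Pax7 in 7 of 15 and Pax2 between the cKOs in 13 of 14, none of which could match sex for Pax2. DESeq2 with no filter gave these genes no adjusted p and is not counted. Irx1 in the BAF155 cKO over control was −0.13 and turned to 0.08 with lane 1 alone, 0.15 without BAF155 cKO replicate 4 and 0.02 without control replicate 2. The cause was not tested.

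Over all genes, calls in the BAF155 cKO against control were 2246 in the main fit, 1035 with 8 libraries, 682 with lane 1 alone and 1001 to 4073 with single libraries left out. For the Pax6 cKO-labelled libraries against control they were 5866, 3490 with same-sex libraries and 3825 to 6601. Between the cKOs they were 711, 1339 with DESeq2, 470 and 209 with lanes 1 and 3 alone and 307 to 786.

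With the replicate number as a block, calls were 2245, 5689 and 497 in the same order of comparisons, and 0 members were called under the filter. With the block and no filter, Pax2 was also called in the BAF155 cKO over control (1.97, adjusted p = 0.0416). The numbers do not pair the samples. Of 12 pairs of libraries with the same number, 4 had a correlation of deviations above 0.1 (range −0.228 to 0.377), and 2 of 12 libraries correlated best with their own number in both other groups.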
